A study of Homo sapiens with 59 samples.

Results

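Methionine restriction was studied in Jurkat, an established line of human leukaemic T cells: cultures with methionine lowered to 25% were set against a matching methionine control at day 3. The comparison rests on 10 of the 59 libraries of a series on 7 essential amino acids: 5 libraries labelled 25% Methionine (restricted) and 5 labelled Methionine control (control). Beyond the words 25% and control, the labels give neither medium composition nor concentrations, and no genetic change or further agent is named for either group. Genes averaging 10 normalised counts or more across these 10 libraries were the members, 16889 of the 28846 listed. The lowest mean kept was 10.0009 and the highest left out 9.99993. A later comparison of responses also used tryptophan and histidine libraries of the same series, all at day 3. For each of these amino acids, 5 libraries were labelled 25% (restricted) and 5 control. Whether same-group libraries stem from different cultures is not labelled, so every p-value measures the spread between libraries, which may be technical.

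Methionine is an essential amino acid that starts nearly every nascent protein and is the source of S-adenosylmethionine, the methyl donor of DNA, RNA, histone and phospholipid methylation. Methionine adenosyltransferase makes S-adenosylmethionine, methyl transfer leaves S-adenosylhomocysteine, and the hydrolase AHCY splits that into homocysteine, which is either remethylated to methionine with a folate methyl group or passed into transsulfuration towards cysteine and glutathione. Decarboxylated S-adenosylmethionine also feeds the synthesis of the polyamines spermidine and spermine, whose by-product is salvaged back to methionine.

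The deposited values summed to between 14949600 and 17476900 normalised counts per library, and the reads behind them were estimated at 12000000 to 23400000 per library from the step between low values. All 13 T lineage and Jurkat markers checked were measured, and their summed level ran from 66334 to 70612 normalised counts in the restricted libraries and from 61471 to 71043 in the control libraries. Control library 1 stood apart: its median correlation with its own group was 0.935, against 0.963 or more for the other 9, and 22294 genes were above 0 in it, against 24465 to 26106 in the others. Without it 8966 genes were called in place of 8990, and 6 rather than 8 mitochondrially encoded mRNAs were called higher.

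MAT2A encodes the catalytic subunit of the methionine adenosyltransferase of most tissues outside the liver. As background, the methyltransferase METTL16 methylates an adenosine within a nonamer in hairpins at the end of the MAT2A mRNA, and binding of METTL16 there promotes splicing of the last MAT2A intron when S-adenosylmethionine is scarce. The longest protein-coding MAT2A transcript of GENCODE 29 (GRCh38, chromosome 2, plus strand, 2819 bases) was searched for the nonamers TACAGAGAA and TACAGAAAA in the sense direction. All 6 matches lay in the 1508 bases after the stop codon, in the last exon's untranslated part. They are shown because they are the sites through which the enzyme pair below is known to be coupled; each line gives 29 bases with the nonamer in capitals.

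match 1, chr2:85543802-85543830, 40 bases after the stop codon: tggcgtaggcTACAGAGAAgccttcaagc
match 2, chr2:85544589-85544617, 827 bases after it: tgtgatgtcaTACAGAGAAgtcacagggc
match 3, chr2:85544774-85544802, 1012 bases after it: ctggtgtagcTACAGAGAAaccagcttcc
match 4, chr2:85544889-85544917, 1127 bases after it: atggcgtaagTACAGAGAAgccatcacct
match 5, chr2:85545004-85545032, 1242 bases after it: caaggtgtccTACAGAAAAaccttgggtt
match 6, chr2:85545112-85545140, 1350 bases after it: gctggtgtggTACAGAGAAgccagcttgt

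Among the 12414 tested genes with a protein-coding transcript in that release, 8.99% held at least 1 of these nonamers in their longest transcript, and MAT2A was the only one that held 6.

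MAT2A and METTL16 mRNA both rose under methionine restriction. RefSeq (GRCh38.p14) places MAT2A at chr2:85539168-85545281 and METTL16 at chr17:2415715-2511888. MAT2A stood at 13939, 13763, 13419, 14700 and 14257 normalised counts in restricted libraries 1 to 5 and at 5979, 5734, 5369, 5263 and 7209 in control libraries 1 to 5 (log2 fold change 1.25 ± 0.08 (SE), adjusted p = 2.36e-08, limma). METTL16 stood at 2823, 2797, 2709, 2873 and 2588 in the restricted libraries and at 763, 926, 629.9, 861 and 906 in the controls (log2 fold change 1.77 ± 0.10 (SE), adjusted p = 6.21e-09). For both genes every restricted library lay above every control library. Non-overlap of this kind was found for 6742 genes, 39.9% of those tested.

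Of the 15 methionine cycle genes tested, 6 were called higher and 6 lower at an adjusted p below 0.05. That split is to be read against all genes, of which 53.2% were called, 27.8% higher and 25.4% lower. Among protein-coding genes alone the shares were 33.4% and 25.5%, and in the highest of their 4 level classes 40.1% and 31.6%. MAT2B, the regulatory subunit that binds MAT2A, rose with it and reached 1952 ± 58.0 normalised counts against 1407 ± 186 (mean ± SD, n = 5 and 5; log2 fold change 0.48). The AHCY mRNA, for the step downstream of methyl transfer, fell. AHCY, the hydrolase of S-adenosylhomocysteine, stood at 1374, 1401, 1346, 1379 and 1253 in the restricted libraries and at 3059, 3361, 3393, 3085 and 3265 in the controls (log2 fold change -1.26 ± 0.06 (SE), adjusted p = 1.85e-09), without overlap. Its relative AHCYL1 changed by -0.83 on the log2 scale and AHCYL2, another relative, by 0.40, so that members of the AHCY family moved in both directions.

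Remethylation genes were split as well. Methionine synthase MTR, which transfers the folate methyl group to homocysteine, fell from 2675 ± 324 to 1932 ± 246 (log2 fold change -0.47). MTRR, the reductase that returns the cobalamin of MTR to its active form, stood at 332, 441, 603, 446 and 229 in the restricted libraries and at 206, 206, 140.3, 69.1 and 281 in the controls (log2 fold change 1.25 ± 0.33 (SE), adjusted p = 0.0056). Its groups overlapped, since restricted library 5 lay below control library 5. SLC25A26, the mitochondrial carrier of S-adenosylmethionine, fell by 0.42 on the log2 scale, and the groups of MTR and SLC25A26 overlapped as well. The cobalamin gene MMADHC (0.24) and the liver isozyme MAT1A (-0.96, at 24.3 ± 9.39 against 45.4 ± 10.2) were called too, but leaving out restricted library 3 or control library 5 ended the call of MAT1A, and leaving out any 1 of 7 libraries ended that of MMADHC, with adjusted p up to 0.0727 and 0.107. MMACHC, ADK and GNMT were not called (log2 fold changes 0.22, -0.10 and -0.12). Under equal library totals the counts of 6 and 6 were the same, and the list's median moved from -0.10 to 0.03.

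**Figure D1:**
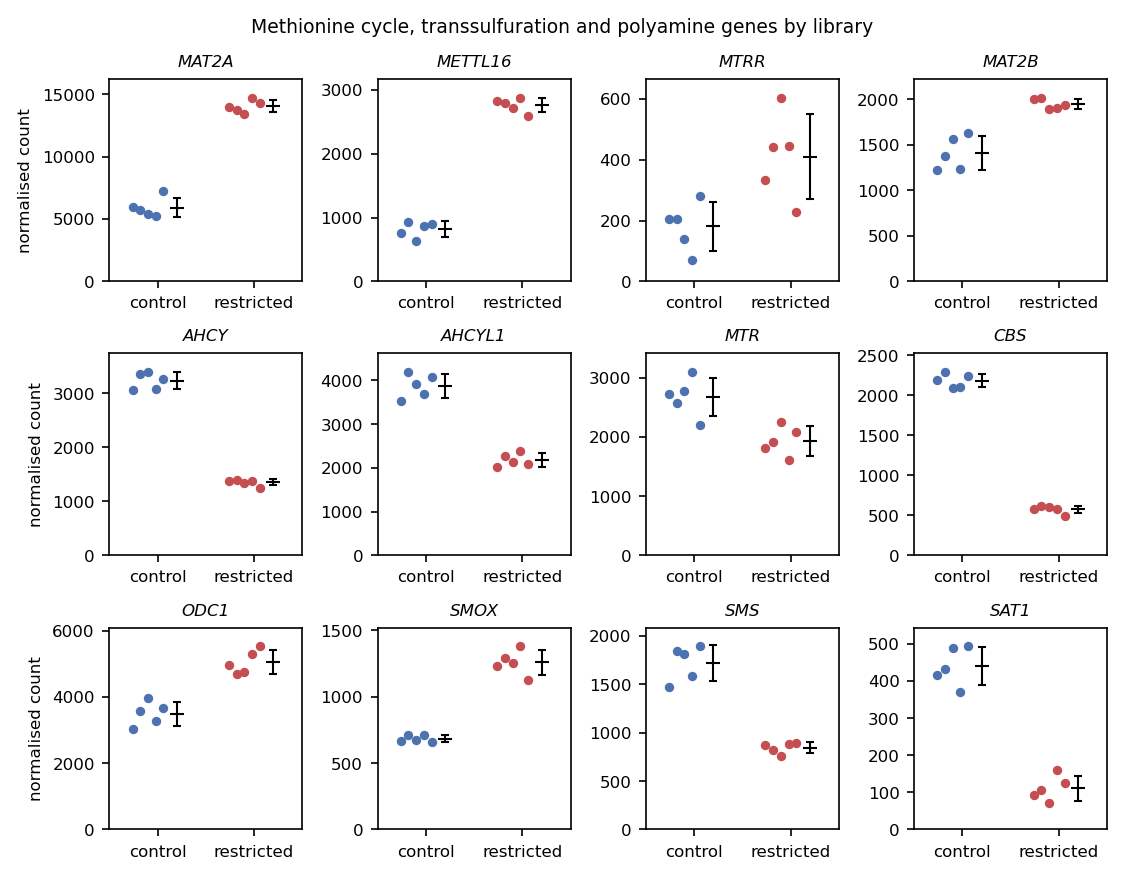
Normalised counts (vertical axes, from 0) of 12 methionine cycle, transsulfuration and polyamine genes in the 5 control (blue) and 5 restricted (red) libraries; each point is a library, and the bar to its right is the mean with its SD. MAT2A, METTL16, MAT2B, ODC1 and SMOX lie higher and AHCY, AHCYL1, CBS, SMS and SAT1 lower without overlap, while the points of MTRR and MTR overlap.

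CBS, which commits homocysteine to transsulfuration, had the largest fall among the 25 transsulfuration and glutathione genes tested. It stood at 579, 615, 605, 578 and 498 normalised counts in the restricted libraries and at 2190, 2290, 2092, 2104 and 2233 in the controls (log2 fold change -1.93 ± 0.07 (SE), adjusted p = 1.71e-10). CBS lies at chr21:43053191-43076873, and AHCY at chr20:34231981-34311836. GRCh38 holds a near-identical copy of CBS, so the split of reads between the copies is uncertain. The next enzyme of the route, CTH, was not called (119.9 ± 21.5 against 144 ± 39.3, log2 fold change -0.23, adjusted p = 0.367). Over the list 10 genes were called higher and 7 lower (40.0% and 28.0%), beside 27.8% and 25.4% of all genes tested and 33.4% and 25.5% of protein-coding genes. The list's median log2 fold change was 0.06, beside 0.02 over all genes tested.

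The glutathione and thioredoxin members called higher included NQO1 (0.90), a quinone reductase, GPX1 (0.65), a peroxide-reducing glutathione peroxidase, SRXN1 (0.64), which repairs oxidised peroxiredoxins, CHAC2 (0.64), SQOR (0.39), TXNRD1 (0.27) and GCLM (0.27). Those called lower included GPX4 (-1.04), the peroxidase of membrane lipids, ETHE1 (-1.01) and MPST (-0.76), enzymes of mitochondrial sulfur oxidation and sulfur transfer, TXN (-0.84) and CHAC1 (-0.92), which degrades glutathione. GPX4 and GPX1 thus moved in opposite directions: GPX4 lay between 1951 and 2525 normalised counts in the restricted libraries and between 4208 and 5200 in the controls, GPX1 between 2331 and 2809 and between 1587 and 1825. The calls of GCLC and GGT1 were lost when any 1 of 7 and of 6 libraries was left out (adjusted p up to 0.114 for each). GSS lost its call without restricted library 2 or 4 or control library 1 (up to 0.0582), and PRDX1 without restricted library 3 or control library 2 or 5 (up to 0.0616) and under either other scaling (up to 0.143). HMOX1, GSR, GLRX, GGT7, CSAD, SUOX and TST were not called.

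Of 17 polyamine and methionine salvage genes, 7 were called higher and 4 lower (41.2% and 23.5%). All genes tested gave 27.8% and 25.4%, and protein-coding genes 33.4% and 25.5%. ODC1, the first enzyme of polyamine synthesis, stood at 4955, 4686, 4748, 5280 and 5538 normalised counts in the restricted libraries and at 3024, 3563, 3963, 3264 and 3657 in the controls (log2 fold change 0.53 ± 0.08 (SE), adjusted p = 6.42e-05). SMS, which makes spermine from spermidine, fell from 1721 ± 182 to 846 ± 56.3 (log2 fold change -1.02). The groups of neither gene overlapped. SMOX, the oxidase that returns spermine to spermidine, rose from 684 ± 24.9 to 1258 ± 92.4 (0.88), whereas SAT1, which acetylates spermidine and spermine for export, was at 92.0, 106, 71.8, 161 and 125 in the restricted libraries and at 414, 431, 489, 370.4 and 494 in the controls (log2 fold change -2.02 ± 0.19 (SE), adjusted p = 7.25e-07). AMD1 and SRM, which make decarboxylated S-adenosylmethionine and spermidine, were not called (log2 fold changes 0.18 and 0.08, adjusted p = 0.0649 and 0.478), and AMD1 was called higher under either other scaling and without restricted library 2.

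The mRNAs for the steps by which spermidine modifies the translation factor EIF5A did not move together. DOHH, the last enzyme of that modification, rose from 643 ± 86.5 to 1467 ± 127 (1.20), EIF5A itself by 0.41, and the first enzyme DHPS was not called (-0.05). The antizyme inhibitor AZIN1 (0.23) and the antizyme OAZ2 (0.29) were called higher, and OAZ1 was not called (0.06). In the salvage route back to methionine ADI1 rose (0.36) and APIP fell (-0.45). MTAP, its first enzyme, was low in both groups, at 20.8, 19.4, 23.0, 7.38 and 18.9 in the restricted and 47.5, 58.1, 48.6, 46.3 and 57.4 in the control libraries (log2 fold change -1.56 ± 0.32 (SE), adjusted p = 8.63e-04). ENOPH1 and MRI1 were not called.

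**Figure D2:**
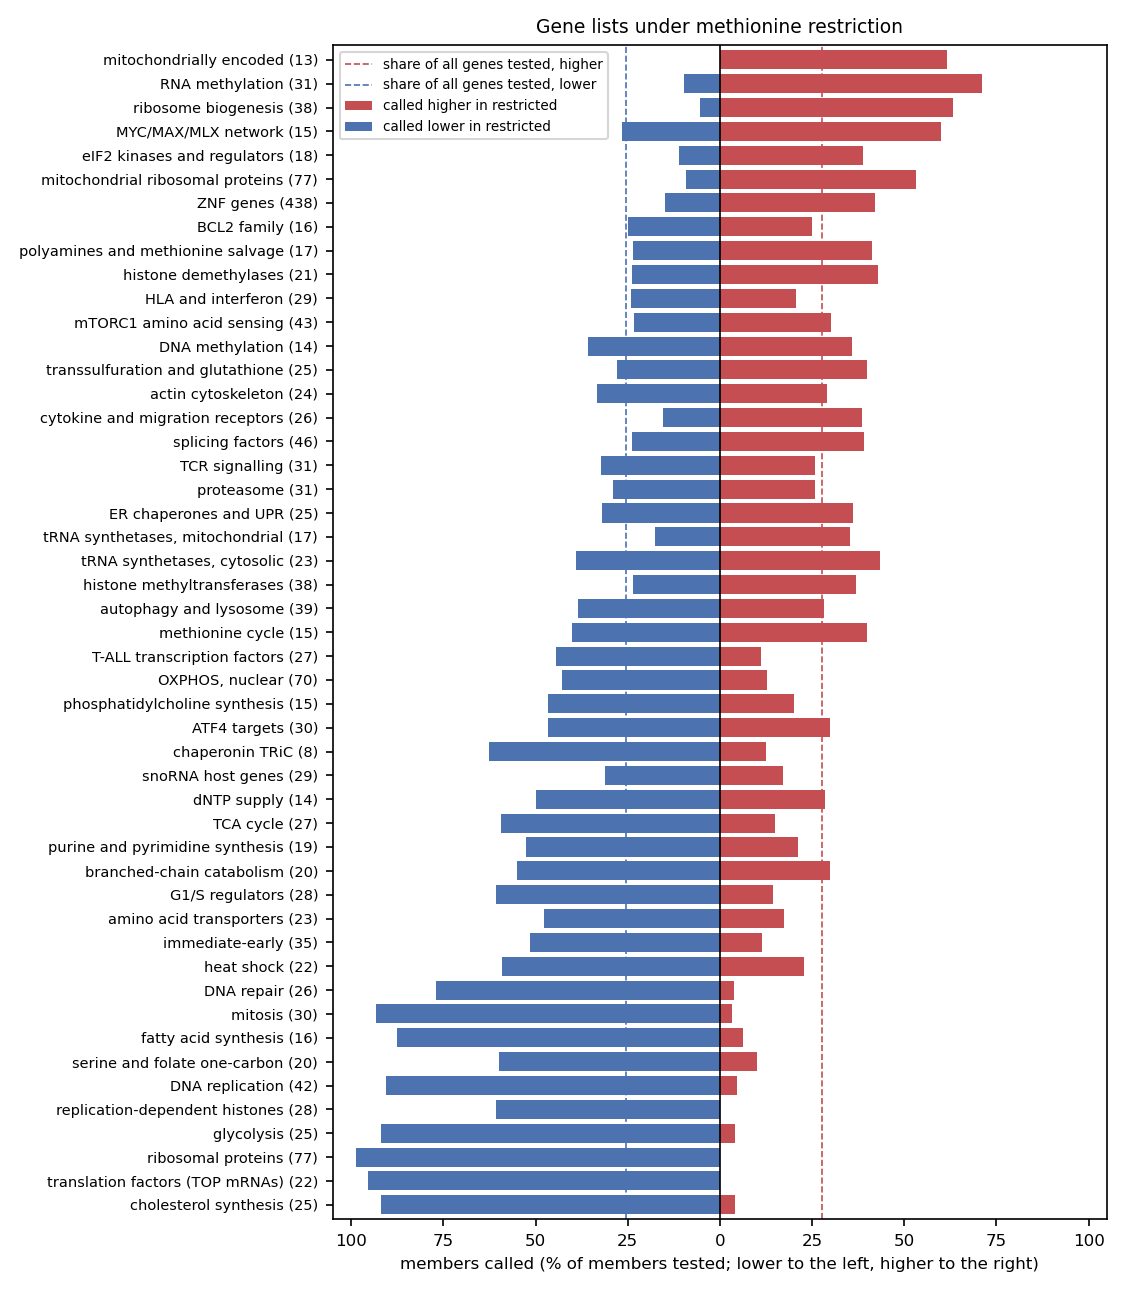
Share of each gene list called higher (red, to the right) and lower (blue, to the left) under methionine restriction, in percent of the members tested (number in brackets), ordered by median log2 fold change; dashed lines mark the shares over all genes tested, 27.8% and 25.4%. RNA methylation, ribosome biogenesis and mitochondrially encoded mRNAs have the largest shares called higher, and ribosomal proteins, translation factors and mitosis the largest called lower.

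Genes that place, remove or read methyl marks were described by what is methylated. Of 31 writers, erasers and readers of RNA methylation 22 were called higher and 3 lower, with a median log2 fold change of 0.45. Their shares were 71.0% and 9.7%, beside 27.8% and 25.4% of all genes tested. NOP2 and NSUN2, which place methylcytosine on ribosomal and transfer RNA, rose by 1.03 and 1.06, and the transfer RNA methyltransferase METTL1 and its partner WDR4 by 1.37 and 1.27. The demethylases ALKBH5 and FTO rose as well, ALKBH5 from 3032 ± 338 to 5661 ± 346 normalised counts (0.91) and FTO from 330.3 ± 104 to 620.0 ± 146 (0.94), and so did the reader YTHDF1 (0.87). METTL3, the catalytic subunit of the main adenosine methyltransferase of mRNA, was 1 of the 3 that fell, from 523 ± 56.9 to 344 ± 56.6 (log2 fold change -0.61 ± 0.13 (SE), adjusted p = 0.00104), and FBL, the methyltransferase guided by small nucleolar RNA, another (-1.01). METTL1, WDR4, FTO, METTL3 and FBL were singled out after their values had been seen.

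Of 38 histone methyltransferases 14 were called higher and 9 lower (36.8% and 23.7%), and of 21 demethylases 9 and 5 (42.9% and 23.8%). All genes tested gave 27.8% and 25.4%, and protein-coding genes 33.4% and 25.5%. The methyltransferase shares lie close to both, and their counts say little about the list. SETD2, which trimethylates histone H3 on transcribed genes, rose from 2004 ± 163 to 5010 ± 258 (1.32), NSD1 and PRMT6 rose by 0.91 and 0.93, and NSD2 changed by -0.70. EZH2 and PRMT5 rose by 0.28 each, and the demethylases RIOX2 and KDM2A by 1.39 and 0.62, against -0.73 for KDM4B and -0.61 for KDM1A. Of 14 DNA methylation genes 5 were higher and 5 lower (35.7% each). The maintenance methyltransferase DNMT1 fell from 2187 ± 590.1 to 1094 ± 188 (log2 fold change -0.97 ± 0.17 (SE), adjusted p = 2.83e-04). Its recruiter UHRF1 and the de novo enzyme DNMT3A were called lower at -0.94 and -0.38, and the methyl-binding proteins MBD1 and MBD3 rose by 0.86 and 0.79.

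Genes for making ribosomes moved against those for the ribosome's own proteins. RPL3, of the large subunit, stood at 8152, 9627, 8249, 9740 and 8536 normalised counts in the restricted libraries and at 48939, 57014, 56848, 51732 and 59829 in the controls (log2 fold change -2.63 ± 0.08 (SE), adjusted p = 1.27e-11). Of 77 cytosolic ribosomal protein genes 76 were called lower and none higher (median log2 fold change -1.27), and of 22 translation factors and related genes with terminal oligopyrimidine mRNAs 21 were lower. Ribosomal protein genes have many near-identical pseudogenes, so single members are less certain than the count. The translation factors called lower included EIF3E (-2.37) and EIF4B (-1.40), initiation factors. In contrast 24 of 38 ribosome biogenesis genes were called higher and 2 lower, with a median of 0.44. Over all genes tested 27.8% were called higher and 25.4% lower. PNO1 (1.33) and PES1 (1.12), assembly factors of the small and large subunit, and RRN3 (1.37), the initiation factor of RNA polymerase I, were among the first by p.

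Mean log2 levels of the lists show how far the groups were apart. The ribosomal protein list lay between 12.14 and 12.44 in the restricted libraries and between 13.41 and 13.87 in the controls, and the biogenesis list between 10.41 and 10.53 and between 9.95 and 10.10. Neither pair of groups overlapped. In bulk RNA, less mRNA per cell and fewer cells of a type cannot be told apart.

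Of 77 mitochondrial ribosomal protein genes 41 were called higher and 7 lower (53.2% and 9.1%, median 0.31). MRPL1 stood at 619, 606, 557, 660.0 and 594 in the restricted libraries and at 186, 172, 205, 185 and 201 in the controls (log2 fold change 1.67 ± 0.09 (SE), adjusted p = 7.09e-09), MRPL20 rose by 1.44 and MRPS10 by 0.99, while MRPS27 fell from 1888 ± 62.9 to 1111 ± 55.1 (-0.77). Of 17 mitochondrial tRNA synthetases 6 were higher and 3 lower (35.3% and 17.6%, beside 27.8% and 25.4% of all genes tested). Their median was 0.0014, and TARS2 was among the lower (-0.55). Of 70 nuclear genes of oxidative phosphorylation 9 were higher and 30 lower (12.9% and 42.9%), COX4I1 and UQCRC1 among the latter (-1.27 and -1.39).

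Of 13 mRNAs encoded in mitochondrial DNA 8 were called higher (61.5%, beside 27.8% of all genes tested) and none lower. MT-ND2, a complex I subunit, stood at 37640, 22830, 20468, 34488 and 21220 normalised counts in the restricted libraries and at 7057, 9921, 5964, 7619 and 14959 in the controls (log2 fold change 1.62 ± 0.23 (SE), adjusted p = 4.51e-05). The groups did not overlap, but the spread within each was wide, and restricted libraries 1 and 4 and control library 5 were the highest of their groups. MT-CO1 and MT-CO2 went the other way without being called (-0.21 and -0.34) and were chosen after their values had been seen. The count of 8 fell to 4 without restricted library 1, and to 5 without restricted library 4, control library 3 or control library 4. The list's mean log2 level overlapped between groups, from 13.56 to 14.34 in the restricted and from 12.91 to 14.08 in the control libraries.

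**Figure D3:**
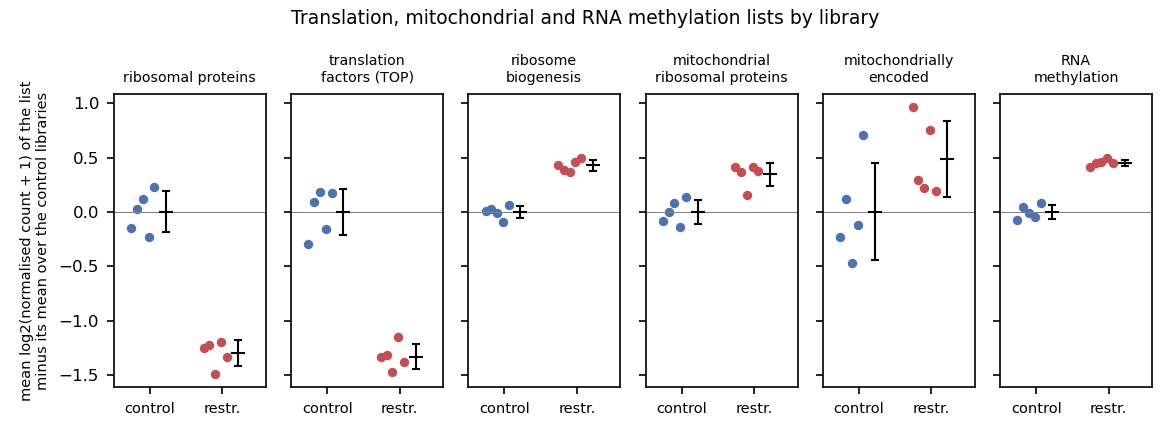
Mean log2(normalised count + 1) of 6 gene lists in each library, minus the list's mean over the 5 control libraries (vertical axis, log2 units); blue points are control and red points restricted libraries, and bars give the mean and SD of a group. The cytosolic ribosomal protein and translation factor lists lie lower and the biogenesis, mitochondrial ribosomal protein and RNA methylation lists higher in every restricted library, while the mitochondrially encoded list overlaps.

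Genes of DNA replication fell almost throughout, 38 of 42 with 2 higher (median log2 fold change -1.09), and many of their promoters held E2F-type letters. Over all genes tested 25.4% were called lower and 27.8% higher. RefSeq promoters (GRCh38.p14, 250 bases before to 50 after the start) were matched by symbol for 36 of the 42 genes. The letters TTTCCCGC, TTTGGCGC, TTTGCCGC or TTTCGCGC on either strand occurred in 17 of these 36, or 47.2%, against 5.42% of the promoters of tested genes and 3.33% of all 27305 promoters of the table. Of the 17 genes 15 were called lower and 2 higher, so both list members called higher held the letters. Among the promoters of all genes called lower the share was 6.88%. The promoter of MCM2, a subunit of the replicative helicase, is shown as the matching member with the smallest p, from 170 bases before to 30 after the start, plus strand, with the 2 overlapping matches in capitals.

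MCM2, chr3:127598241-127598440: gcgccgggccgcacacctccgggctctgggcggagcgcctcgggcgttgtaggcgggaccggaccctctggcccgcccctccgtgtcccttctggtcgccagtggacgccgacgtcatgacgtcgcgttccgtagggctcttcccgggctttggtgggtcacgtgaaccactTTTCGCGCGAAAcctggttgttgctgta

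MCM2 itself stood at 1851, 1735, 1802, 1880 and 1719 normalised counts in the restricted libraries and at 6168, 7056, 6479, 6632 and 6115 in the controls (log2 fold change -1.85 ± 0.06 (SE), adjusted p = 3.04e-11). CDT1, which loads that helicase, and the polymerase subunit POLD1 changed by -2.09 and -1.69 on the log2 scale, both called lower. A match of letters is a description of the promoter, not evidence of a bound factor.

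Regulators of the step from G1 into S phase were mostly lower, 17 of 28, with 4 higher (60.7% and 14.3%). All genes tested gave 25.4% lower and 27.8% higher. E2F1, the transcription factor that drives S phase genes, stood at 837, 917, 806, 986 and 734 in the restricted libraries and at 2688, 2620, 2387, 2807 and 2375 in the controls (log2 fold change -1.59 ± 0.09 (SE), adjusted p = 5.31e-09). E2F2 (-1.46), the cyclins CCND3 (-1.29), CCNE1 (-1.74) and CCNE2 (-1.70) and the phosphatase CDC25A (-1.02) were lower too. CDK6, the kinase that cyclin D activates, went the opposite way: 13175, 14132, 16975, 13168 and 17348 against 5915, 5550, 5884, 5959 and 4592 (log2 fold change 1.42 ± 0.10 (SE), adjusted p = 5.01e-08). CDK6 lies at chr7:92604921-92836573 and E2F1 at chr20:33675477-33686385. No restricted library of CDK6 came near the controls, and its usual cyclin partner CCND3 fell from 14489 ± 553 to 5937 ± 615. The inhibitors CDKN1B and CDKN2C were called lower (-0.43 and -0.49) and CDKN1A was not called (60.0 ± 15.5 against 76.4 ± 14.5). CDK6, CCNE1 and CCNE2 were singled out after their values had been seen.

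In the BCL2 family, which sets the threshold of apoptosis, BMF and BAK1 rose by 0.92 and 0.65, and BCL2 and PMAIP1 changed by -0.94 and -0.96, with 4 of 16 higher and 4 lower, shares no larger than those of all genes tested (27.8% and 25.4%). Equal library totals raised that split to 10 higher and 3 lower.

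The amino acid stress genes controlled by ATF4 were called in both directions. ATF4 rose from 13086 ± 1027 to 16630 ± 1237 (0.35), ATF5 by 0.68 and CEBPG by 1.20. So did DDIT3 (1.36) and TRIB3 (2.21), factors of the late stress response, and PPP1R15A (1.34), which directs removal of the phosphate from eIF2. ASNS, asparagine synthetase, stood at 167, 102, 227, 224 and 244 in the restricted libraries and at 553, 1057, 1143, 636 and 876 in the controls (log2 fold change -2.15 ± 0.25 (SE), adjusted p = 5.93e-06), and PSAT1, SHMT2, MTHFD2 and PCK2 changed by -1.15, -1.66, -1.23 and -1.50. ATF3, a stress-induced transcription factor, fell as well (-1.32), and CTH, also in this list, was not called (-0.23). Of the 30 members tested 9 were higher and 14 lower (30.0% and 46.7%), beside 27.8% and 25.4% of all genes tested. The share called higher thus lies close to that of all genes. ATF3, ATF5, CEBPG, MTHFD2 and PCK2 were singled out after their values had been seen.

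The members were then split by the amino acid response letters TGATGNAA, searched on both strands together with TTGCATCA, the reverse complement of 1 form of the first. They occurred in 5 of the 24 members with a promoter, or 20.8%, against 1.69% of the promoters of tested genes. ASNS, ATF3, CHAC1 and SLC7A1 held them and were called lower, SLC3A2 held them and was not called, and the 9 members called higher held none in this window; SLC7A1 is named only for this match. The ASNS promoter (minus strand, 170 bases before to 30 after the start) is shown because it carries the letters at position -68, in capitals.

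ASNS, chr7:97872379-97872578: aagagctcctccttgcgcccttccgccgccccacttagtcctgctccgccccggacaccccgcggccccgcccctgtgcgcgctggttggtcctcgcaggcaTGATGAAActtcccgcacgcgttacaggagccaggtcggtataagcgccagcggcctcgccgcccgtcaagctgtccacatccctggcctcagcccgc

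Amino acid carriers were called lower in 11 of 23 cases and higher in 4 (47.8% and 17.4%). All genes tested gave 25.4% lower and 27.8% higher. SLC43A2, a sodium-independent carrier of large neutral amino acids including methionine, stood at 452, 438, 478, 582 and 467 normalised counts in the restricted libraries and at 107, 109.7, 80.6, 146 and 103 in the controls (log2 fold change 2.15 ± 0.15 (SE), adjusted p = 5.16e-08). Its relative SLC43A1 fell by 0.68 on the log2 scale, and SLC1A5 and SLC38A2, sodium-dependent carriers of small neutral amino acids, changed by -1.13 and -0.92. SLC7A5 and SLC3A2, the subunits of the main carrier for large neutral amino acids, were not called (-0.05 and -0.09), with SLC7A5 between 24319 and 30539 in the restricted and 26002 and 34346 in the control libraries. SLC38A9, the lysosomal arginine sensor, rose by 0.93 and was chosen after its value had been seen.

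Among the sensors that report amino acids to mTORC1, 13 of 43 were higher and 10 lower (30.2% and 23.3%), about the shares of all genes tested (27.8% and 25.4%). The S-adenosylmethionine sensor BMT2, also known as SAMTOR, was not called (288 ± 50.4 against 294 ± 53.1, log2 fold change -0.03, adjusted p = 0.874). RRAGC rose by 0.64 and RRAGD, another GTPase of the same complex, changed by -0.82. SESN3, a sestrin, fell from 775 ± 99.7 to 309 ± 20.6 (-1.32), and the kinase gene EIF2AK4, which senses uncharged transfer RNA, was not called (0.12). MARS1 and MARS2, the cytosolic and mitochondrial methionyl-tRNA synthetases, were called higher by 0.21 and 0.27. EEF1E1 and AIMP2, scaffold proteins of the synthetase complex, rose by 1.66 and 1.27.

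Of 31 genes of T cell receptor signalling 8 were higher and 10 lower (25.8% and 32.3%, beside 27.8% and 25.4% of all genes tested), and equal library totals turned that into 12 and 4. CD28, the costimulatory receptor, stood at 214, 195, 205, 227 and 288 normalised counts in the restricted libraries and at 40.5, 27.1, 24.1, 43.8 and 48.5 in the controls (log2 fold change 2.62 ± 0.22 (SE), adjusted p = 2.47e-07). The co-receptor CD4 stood at 5.04, 22.2, 27.8, 21.9 and 14.4 and at 146, 139.6, 135, 135 and 165 (log2 fold change -3.09 ± 0.36 (SE), adjusted p = 6.62e-06). Both separated the groups, in opposite directions. CD28 lies at chr2:203706482-203738912 and CD4 at chr12:6789528-6820799.

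PTPRC, the CD45 phosphatase, rose from 5203 ± 890.3 to 11711 ± 2715 (1.16), and so did PTPN22 (1.20), CD6 (0.88) and the adaptor LCP2 (0.98). The activation marker CD69 fell from 503 ± 98.3 to 217 ± 31.7 (-1.20), and CD3E was not called (0.04). The receptor constant genes TRBC1 and TRBC2 moved by -0.63 and 0.67; their sequences are nearly identical, so the division of reads between them is uncertain. The recombinase genes RAG1 and RAG2 (-0.97 and -1.31) and the transcription factors RUNX1 and GATA3 (-0.60 and -0.54) were called lower. TAL1, the oncogene active in Jurkat cells, was not called (0.10), but was called higher under either other scaling. CD4, LCP2 and TRBC2 were singled out after their values had been seen.

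MYC, the growth-promoting transcription factor, fell from 3442 ± 565 to 1781 ± 256 (log2 fold change -0.94 ± 0.12 (SE), adjusted p = 2.17e-05). Its antagonist MGA rose (0.81), MXD3 fell (-1.73), and ARRDC4 and TXNIP, targets of the glucose-sensing MLX partners, rose by 4.33 and 4.73. The letters CACGTG, to which MYC and its relatives can bind, occurred in 43.8% of the 32 matched promoters of the ribosome biogenesis list, against 10.0% of those of tested genes. Of those 14 genes 11 were called higher and 1 lower.

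Immediate-early genes were lower in 18 of 35 cases and higher in 4 (51.4% and 11.4%, beside 25.4% and 27.8% of all genes tested). FOS stood at 10.8, 8.26, 16.4, 16.1 and 19.6 in the restricted libraries and at 145, 69.7, 82.9, 103 and 94.3 in the controls (log2 fold change -2.73 ± 0.30 (SE), adjusted p = 3.37e-06), and EGR1 (-1.74), KLF2 (-1.69) and IER2 (-1.23) fell with it. KLF10, a repressor induced by transforming growth factor, was the member called higher with the smallest p: 1260, 1276, 1377, 1343 and 1279 against 239, 239, 213, 223 and 249 (log2 fold change 2.49 ± 0.08 (SE), adjusted p = 2.08e-11). Its range within each group was narrow and the groups were far apart.

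**Figure D4:**
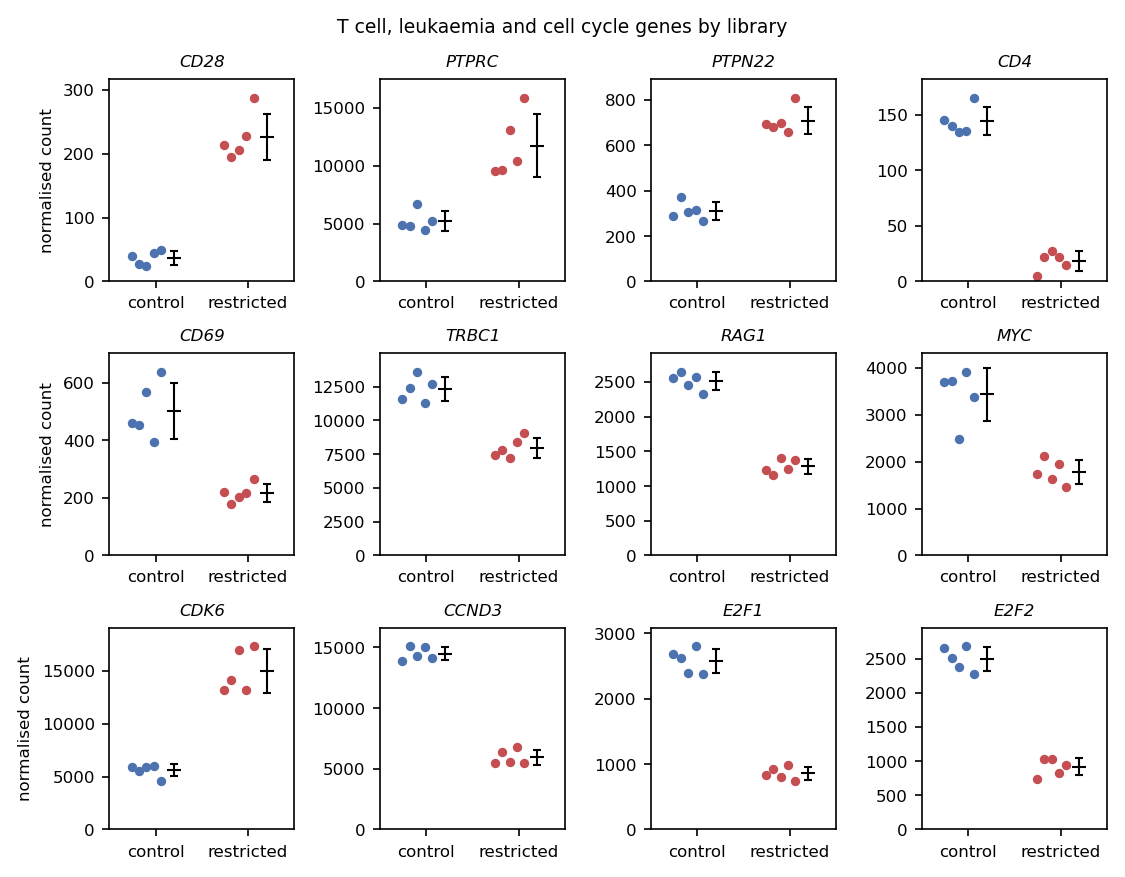
Normalised counts (vertical axes, from 0) of 12 T cell, leukaemia and cell cycle genes in the 5 control (blue) and 5 restricted (red) libraries, with the mean and SD of each group as bars. CD28, PTPRC, PTPN22 and CDK6 lie higher and CD4, CD69, TRBC1, RAG1, MYC, CCND3, E2F1 and E2F2 lower in every restricted library.

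Lipid and sugar genes gave some of the largest falls. Of 25 sterol genes 23 were called lower (92%, beside 25.4% of all genes tested) with a median log2 fold change of -2.16. The desaturases FADS1 and FADS2 changed by -2.87 and -3.68 and ACLY, which supplies acetyl groups for lipids, by -1.41. Of the cytidyl transferases of phospholipid synthesis, PCYT1A, of the choline branch, rose from 716 ± 104 to 1373 ± 144 (0.94) and PCYT2, of the ethanolamine branch, fell from 1972 ± 191 to 634 ± 55.6 (-1.64). In glycolysis 23 of 25 were lower (92%), ALDOC (-3.27) and PDK1 (-2.22) among them.

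The 10 largest rises among called genes without overlap and with at least 100 normalised counts in the higher group were led by CHGB, a secretory granule protein, at 138, 142, 147, 198 and 162 in the restricted libraries and at 0, 3.27, 0, 0.91 and 0 in the controls. On the log2(normalised count + 1) scale that is 6.69, a size that depends on the added 1. IL31RA (4.91), TXNIP, KLHDC7B (4.61), CCPG1 (4.45), ARRDC4, SERPINF1 (3.27), KIF26B (3.13) and DMGDH (3.12), the dimethylglycine dehydrogenase of one-carbon metabolism, followed, with 1 unnamed locus. DMGDH lay between 276 and 306 in the restricted libraries and between 15.6 and 67.5 in the controls.

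Of the 10 largest falls, 3 were genes of inducible heat shock proteins, HSPA6, HSPA1A and HSPA1B (-7.10, -6.89 and -5.06), of which HSPA1A and HSPA1B are near-identical and uncertain as single genes. TERT, the catalytic subunit of telomerase, stood at 11.1, 24.4, 18.1, 0 and 11.3 in the restricted libraries and at 230.3, 156, 232, 210.2 and 167 in the controls (log2 fold change -4.40 ± 0.67 (SE), adjusted p = 7.88e-05). TMEM120A (-4.42), LINC01670, the antisense transcript MELTF-AS1, the readthrough locus SLX1A-SULT1A3 and 1 unnamed locus were also among them. MELTF-AS1 lies antisense to another gene and SLX1A-SULT1A3 spans its neighbours, so the assignment of their reads is uncertain.

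Changes of at least 2-fold that also passed the adjusted p were fewer upward than downward: 1117 genes, or 6.61%, rose and 1757, or 10.4%, fell by that much. By transcript class, 33.4% of 12664 protein-coding genes were called higher and 25.5% lower, whereas of 1208 long non-coding RNA genes 11.2% were higher and 29.0% lower. The long non-coding genes had a median level of 32.0 normalised counts against 563 for the protein-coding genes, and the part of level in this difference was not tested. ZNF genes, which encode zinc finger proteins, were called up more often than down (184 and 65 of 438, median 0.26), with ZNF787 and ZNF263 at 1.37 and 1.31. The ZNF shares were 42.0% and 14.8%, beside 27.8% and 25.4% of all genes tested. Among protein-coding genes cut into 4 classes by gene length, the share called higher ran from 30.7% to 34.7%. Equal library totals shifted the middle of all log2 fold changes by 0.127 and the share of calls that were higher from 52.2% to 62.6%.

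Some markers of other cell types moved with the restriction, and their part in the results was not tested. Of 6 B cell markers in the table CD79A and BLK rose by 1.72 and 1.12. The summed level of the 6 ran from 931 to 1116 in the restricted libraries and from 342 to 403 in the controls, while PAX5 and CD22 were at 0 to 17.5 in every library. Of 4 myeloid markers, summing to 22.3 to 34.7 in the restricted and 132 to 202 in the control libraries, CD68 fell by 2.98 on the log2 scale, and CD14, ITGAM and CD33 were at 0 to 12.6. The 9 epithelial, stromal and endothelial markers summed to 1847 to 2026 and to 1496 to 1616, with CDH1 and KRT19 at 0 to 6.76. PECAM1 made up most of that sum, at 1293 to 1498 in the restricted and 1095 to 1264 in the control libraries. Of the 5 of these markers that were tested 4 were called higher, VWF (3.74), KRT8 (0.98), KRT18 (0.82) and PECAM1 (0.26). COL1A1 was not called, at 134 to 230 in the restricted and 183 to 301 in the control libraries. The 2 erythroid and platelet markers in the table summed to 3.29 to 19.7 in the restricted and 29.6 to 72.8 in the control libraries; ITGA2B, the 1 tested, was called lower (-2.25), a call lost without control library 2 (adjusted p = 0.0524).

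The methionine response was then compared gene by gene, as an interaction, with the tryptophan and the histidine comparisons, each from its own separately normalised table with its own 5 restricted and 5 control libraries. The methionine response differed from the tryptophan response for 8631 of 16094 genes (53.6%) and from the histidine response for 5671 of 16505 (34.4%). Called genes were then kept if their groups did not overlap and the higher group averaged at least 100 normalised counts. Of the genes kept, 2843 differed from both responses in the direction of their own change, 1488 of them higher and 1355 lower. In all, 16889 genes were tested for methionine, and how many were kept is not given. The genes kept were already selected for a methionine change, so the 2843 are a description only. MAT2A was among the 2843. It fell by 0.67 under tryptophan and by 0.56 under histidine restriction on the log2 scale, so the difference was 1.93 ± 0.12 (SE, adjusted p = 1.81e-11) and 1.82 ± 0.14 (adjusted p = 1.63e-09).

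METTL16 was 2.79 above the tryptophan response, in which it changed by -1.02, but only 0.95 above the histidine response, in which it rose by 0.81 (adjusted p = 1.96e-13 and 4.82e-06). CBS and PHGDH, the latter the first enzyme of serine synthesis, lay below both responses. Their differences from tryptophan and histidine were -2.23 and -1.80 for CBS and -2.28 and -2.16 for PHGDH. ASNS rose by 1.23 under tryptophan restriction and was not called under histidine restriction (-0.01), and its differences were -3.38 and -2.14. CHAC1 rose in both, by 1.38 and 0.90, with differences of -2.30 and -1.82. ODC1 lay above both responses, by 1.33 and 0.41. MCM2 lay below both, at -0.27 against tryptophan and -1.04 against histidine, and MYC was not shown to differ (adjusted p = 0.0747 and 0.173), although single libraries left out brought the first to 0.0373 (restricted library 5) or 0.0499 (control library 4) and the second to 0.0332 (control library 3). For CTH the difference was -0.67 against tryptophan (adjusted p = 0.0447) and 0.30 against histidine (adjusted p = 0.384); the first was lost with the replicate number as a block and when any 1 of 6 libraries was left out, with adjusted p up to 0.0914.

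The lists can be set side by side by their medians. Over all 16094 genes compared with tryptophan, 4602 lay above that response and 4029 below it. Of the 16505 compared with histidine, 2600 lay above and 3071 below. Ribosome biogenesis had a median log2 fold change of 0.44 under methionine, -1.10 under tryptophan and 0.07 under histidine restriction, and 37 of its 38 genes lay above the tryptophan response and 18 above the histidine response. RNA methylation stood at 0.45, -0.44 and 0.13, with 24 and 19 of 31 genes above. Ribosomal proteins went the other way, at -1.27, -0.13 and -0.16, with 73 and 74 of 77 genes below. DNA replication fell to the same median in the methionine and tryptophan responses (-1.09 in each) and was at -0.06 under histidine, from which 36 of 42 genes lay lower. The ATF4 list was at -0.23, 0.70 and 0.44, with 19 and 17 of 30 genes below.

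**Figure D5:**
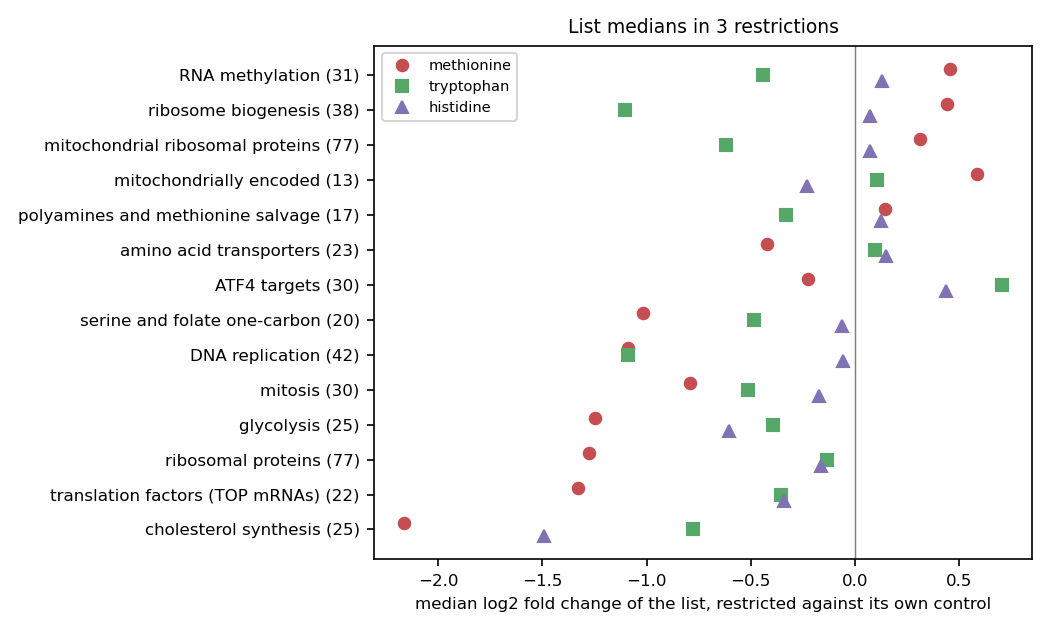
Median log2 fold change of 14 gene lists (horizontal axis, restricted against the control of its own table) for methionine (circles), tryptophan (squares) and histidine (triangles), over the members tested in all 3 tables (number in brackets). Ribosome biogenesis and RNA methylation lie above 0 for methionine and below 0 for tryptophan, and ribosomal proteins lie at -1.27 for methionine and near 0 for the others.

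Single genes outside these lists also differed from both other responses, and the 4 given here were picked after their values had been seen. ASS1, argininosuccinate synthetase, which makes arginine from citrulline, stood at 928, 1065, 849, 1077 and 862 normalised counts in the restricted libraries and at 9056, 10178, 9124, 9221 and 10090 in the controls (log2 fold change -3.32 ± 0.08 (SE), adjusted p = 2.06e-12), whereas it changed by 1.66 under tryptophan and 0.36 under histidine restriction. SNHG5, a host gene of small nucleolar RNAs, stood at 138, 125, 68.0, 87.6 and 37.9 and at 291, 549, 526, 606 and 638 (-2.59), against 2.88 and 2.48. Both differences from the other responses passed the test for both genes (adjusted p of at most 1.04e-09). Upward, the adenosine receptor ADORA2A rose from 99.6 ± 15.3 to 671 ± 68.0 (2.75), against 0.82 and 0.94, and MME, the peptidase of immature lymphocytes known as CD10, from 149.6 ± 14.3 to 332 ± 37.0 (1.14), against -1.14 and -0.70.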

How the data were processed

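Total RNA of Jurkat cells was sequenced from strand-specific libraries made from 1 µg, per the labels' protocols. The values used are the deposited normalised counts, a signal that the authors scaled between libraries. Credited to the submitters' processing notes, with no role stated, are kallisto 0.50.1, DESeq2 1.44.0, FastQC 0.11.9 and the build GRCh38. Not given in the sources used here: annotation release and strand setting. In 55.8% to 76.1% of low values the normalised count was a whole multiple of what 1 read is worth (tolerance 0.1), so whole reads were not recovered and no count model was fitted.

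Groups were taken from the labels. Genes averaging 10 normalised counts or more were fitted as log2(normalised count + 1) with limma 3.58.1 (trended variance, in R 4.3.3). P-values are two-sided, with Benjamini-Hochberg adjustment over all 16889 genes, and a gene is called at an adjusted p below 0.05. Fold changes are on that log2 scale, which understates the change of low genes. Every adjusted p in the text is limma's. The fits were tested on simulated data. Comparisons with tryptophan and histidine restriction were an interaction over 20 libraries. Gene lists are described by counts and medians only.

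Genes named are the members of the methionine cycle, transsulfuration and polyamine lists, up to 4 members with the smallest p of every other list, the 10 largest rises and falls, a fixed set of stress, cell cycle and T cell genes, and genes marked in the text as chosen after their values were seen. Some genes that the rule names are not reported here. The members and lists were chosen with earlier results of these data known. Promoters are from RefSeq (GRCh38.p14) and the MAT2A transcript is from GENCODE 29. The 18 alternatives changed the pseudocount (0.25 or 5), the filter (none, or a mean of at least 100), the scaling (equal library totals, or an unweighted trimmed mean of M values), the replicate block, the library weights, or left out 1 library. Correlations between same-numbered libraries of the 2 groups ran from -0.06 to 0.02, so the replicate numbers were not taken as pairs.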

Additional observations from a re-analysis of the deposited data

Results flagged for a closer look

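Of 446 groups of 5 values checked for a library far from the other 4, 20 (4.48%) had one, and chance flags about 1 in 20 groups. Control library 1 was far from its group in its median correlation (0.935 against 0.963 to 0.966 for the others), in SNHG5 (291 normalised counts against 526 to 638) and in KRT18 (95.4 against 65.9 to 69.6). Other control libraries stood apart for single genes. Control library 5 was low in CDK6 (4592 against 5550 to 5959), control library 4 in EIF5A (4645 against 5065 to 5172) and control library 3 in LCP2 (1008 against 1386 to 1567).

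Among the restricted libraries, number 3 was low in CDKN1B (2722), MARS2 (648), PSAT1 (3241) and the mean log2 level of the mitochondrial ribosomal protein list (9.51 against 9.72 to 9.77), and high in NSD2 (6362). Number 5 was low in CD6 (1096) and high in MTHFD2 (3649 against 2791 to 2905), TXN (1194 against 801 to 867) and YTHDF1 (2902). Number 4 was low in MTAP (7.38 against 18.9 to 23.0), TERT (0 against 11.1 to 24.4) and the mean log2 level of the serine and folate list (8.79 against 8.94 to 8.99). Number 1 was low in POLD1 (1082 against 1171 to 1182), and number 2 was the single restricted library above 0 for SLX1A-SULT1A3 (12.7).

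Of 10 genes set for the comparison of responses, 9 differed between methionine and tryptophan restriction by the interaction test and 8 between methionine and histidine restriction. Over all genes tested the shares were 53.6% and 34.4%. The 10 genes were chosen, so these counts describe those genes only. The CTH difference was lost with the replicate number as a block and when some single libraries were left out. The log2 differences from tryptophan were 1.93 for MAT2A, 2.79 for METTL16, 1.33 for ODC1, -2.23 for CBS, -0.67 for CTH, -3.38 for ASNS, -2.30 for CHAC1, -2.28 for PHGDH and -0.27 for MCM2. Those from histidine were 1.82 for MAT2A, 0.95 for METTL16, 0.41 for ODC1, -1.80 for CBS, -2.14 for ASNS, -1.82 for CHAC1, -2.16 for PHGDH and -1.04 for MCM2.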

How the results depend on the processing

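No result changed direction past the threshold under the 18 alternatives run. The number of genes called ran from 7113 to 9327 over them, the number differing from the tryptophan response from 6894 to 8716 and from the histidine response from 4779 to 5938. With 100 rather than 10 normalised counts required on average, 1328 rather than 2874 genes were called with at least a 2-fold change, since fewer genes were tested. The count of mitochondrially encoded mRNAs called higher ran from 4 to 9 as single libraries were left out, and the cause was not tested. With the replicate number as a block, 8607 genes were called (4534 higher and 4073 lower), 2823 of them at least 2-fold. Without a single library, MMACHC (control 1), MRI1 (restricted 4) and GGT7 (restricted 1) became called, with adjusted p of 0.0302, 0.0375 and 0.0482 by limma. ENOPH1, EIF2AK4 and TST became called under either other scaling, and TST also with library weights. Deposited scaling fixes what counts as no change, depth per library was estimated rather than recorded, and genes near 10 normalised counts carry the least precision.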
